A study of Mus musculus with 54 samples.

Results

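The subject is the difference in replication timing between the 129 and the Cas (Mus castaneus) allele in neural precursor cells (NPCs) of F1 hybrid mouse lines. All autosomal windows of the NPC profiles were taken, 43941 of the 46268 windows of 50 kb in the deposited table. The NPCs gave 3 of the 27 profiles of the series, made from 6 of its 54 libraries, because each profile joins 1 early and 1 late S-phase library. They were derived from 2 embryonic stem cell (ESC) lines labelled female and analysed at day 11. F121-9 (129 named first in the cross) gave 1 NPC profile and Cas129 (Cas named first) gave 2. The reference is the same 2 lines as ESCs in feeder-free 2i medium with LIF, with 2 profiles each. The other 2i ESC lines of the same parents, F121, F121-6 and F123 (labelled male), gave 5 profiles. All of these lines have 129 named first, as F121-9 does. F121, F121-6 and F121-9 share a name stem, and the tests took them as separate lines. Mouse embryonic fibroblasts (MEFs) of 4 embryos with Cas named first gave 8 profiles. By convention the first strain of a cross is the mother's, and on that reading the 2 lines are reciprocal. Each NPC group is 1 line, so a value of F121-9 or Cas129 is that of 1 clone. The labels do not say whether the profiles of a line came from separate differentiations.

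Mammalian chromosomes replicate in large domains that fire early or late in S phase. Early replication goes with open, transcribed chromatin and late replication with closed chromatin and gene deserts, and many domains switch when ESCs become neural precursors. In Repli-Seq, newly made DNA is labelled with BrdU and sequenced from early and late S-phase cells. In an F1 hybrid, reads over strain variants can be given to 1 allele. Both alleles then sit in the same nuclei and meet the same diffusible factors. Each value is a log ratio of early over late S phase for 1 allele, read as log2 because the base is not stated. The allelic difference is the 129 value minus the Cas value, and a positive one means an earlier 129 allele. The timing of a window is the mean of both alleles.

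Timing at marker genes differed between NPCs and ESCs. Of 20 measured pluripotency genes, 11 lay in windows later by at least 1 in NPCs than in the same lines as ESCs, and 0 in windows earlier by that much. Of 19 neural precursor genes, 7 were earlier by at least 1 and 0 later. Over all autosomal windows 16.7% were later by at least 1 in NPCs and 17.1% earlier. Such shifts were not particular to these lists. Of 24 replication genes 12 were later and 1 earlier, and of 39 imprinted genes 17 were earlier and 3 later. Of 16 fibroblast genes 5 were earlier and 1 later, and of 15 endoderm genes 3 were earlier and 3 later. Timing correlated at 0.947 to 0.975 between NPC profiles. The spread of the allelic difference over windows, which holds noise and true differences, was uneven, however. Its SD was 0.672 in Cas129 NPC replicate 2, against 0.465 in F121-9 and 0.433 in Cas129 replicate 1. The noise between 2 NPC profiles (SD of their deviation over the square root of 2) was 0.495 and 0.506 with Cas129 replicate 2 and 0.368 without it. Counts are therefore also given without that replicate. Among the MEFs, whose spread enters the tests, the X tracks of embryos 1 and 3 do not match their sex labels, and counts without them are given too. No read counts were used, so the depth is unknown and no interval that needs it is given. Windows next to each other are not independent, and their allelic differences correlated at 0.849 to 0.887 in the NPC profiles.

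The allelic difference that ESC lines share was much smaller in NPCs. The 11976 windows called in the 3 other ESC lines were chosen by the mean of those lines, and the means of F121-9 and Cas129 had no part in it. Their spread did, since all cells share each window's estimate of it. In the direction of that call, the median difference was 0.14 in F121-9 NPCs, 0.11 in Cas129 NPC replicate 1 and 0.17 in replicate 2. In ESCs of the same lines it was 0.68 and 0.75 in F121-9 and 0.75 and 0.68 in Cas129. No NPC profile overlapped the ESC range. The direction was that of the other lines in 63.0% to 65.4% of these windows in NPC profiles and in 91.8% to 95.1% in ESC profiles. In the 3786 windows with a difference of at least 1 in the other lines, the medians were 0.20, 0.15 and 0.29 in the NPC profiles. The ESC profiles had 1.14 and 1.27 in F121-9 and 1.27 and 1.09 in Cas129. A difference of at least 0.5 in the direction of the other lines was found in 19.4% to 34.9% of those windows in NPC profiles, against 86.0% to 95.3% in ESC profiles.

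Medians were smaller in NPCs whether or not timing itself had moved. In windows that became later by 2 or more in NPCs, the median in the direction of the other ESC lines was 0.12 to 0.28 in NPC profiles and 0.74 to 0.82 in ESC profiles. Windows whose timing changed by less than 1, which make up 66.2% of autosomal windows, had 0.10 to 0.17 in NPC profiles and 0.65 to 0.71 in ESC profiles. In windows earlier by 2 or more the medians were 0.09 to 0.16 in NPC profiles and 0.66 to 0.83 in ESC profiles. In these windows the smaller allelic difference was thus measured with and without a change in timing. They were chosen in ESCs, which favours larger values in ESCs than in NPCs. Windows called in MEFs had small medians in both cell types. The median in the direction of the MEFs was 0.14 in each NPC profile and 0.17 to 0.18 in the ESC profiles, and the direction was shared by 61.4% to 65.1% of windows in NPC profiles and 61.6% to 63.0% in ESC profiles.

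**Figure D1:**
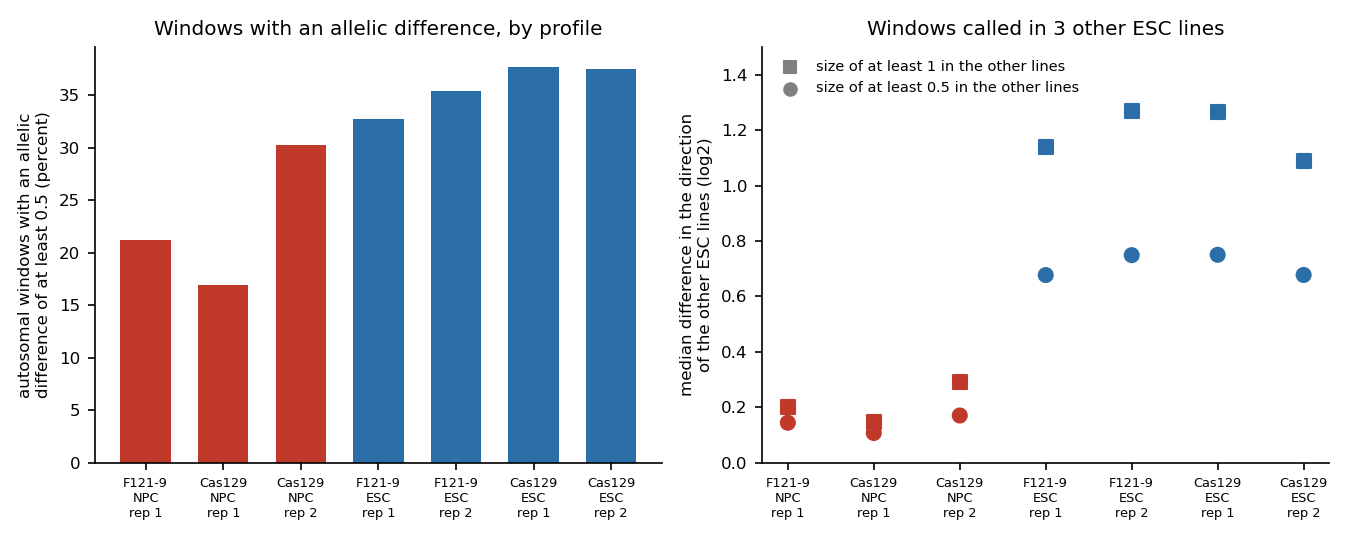
Left, share of autosomal windows (percent) whose alleles differ by 0.5 or more in each profile (bars, NPCs red and 2i ESCs blue). Right, median allelic difference (log2) of each profile in the direction of the other 3 ESC lines, over windows with a difference of at least 0.5 (circles) or 1 (squares) there, where all NPC medians lie at or below 0.29 and all ESC medians at or above 0.68.

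The alleles lay 0.5 or more apart in fewer NPC than ESC windows as well, but such a share also counts noise. It was 21.2% in F121-9 NPCs, 16.9% in Cas129 NPC replicate 1 and 30.2% in replicate 2, against 32.7% and 35.4% in F121-9 ESCs and 37.7% and 37.5% in Cas129 ESCs. After averaging profiles of a line, NPCs had 21.2% (F121-9) and 19.4% (Cas129) and ESCs 30.4% (F121-9) and 33.1% (Cas129). The difference of means was -11.4 percentage points, and the two-sided exact permutation test gave p = 0.333, its lowest possible value with 2 lines in each group. The test did not pair NPCs and ESCs by line, though the lines are the same, and with so few values it cannot decide. The difference was -5.98 points without Cas129 NPC replicate 1 and -16.1 with 1 profile per line. Repeat measurements showed how much was shared. Across windows, which share library and depth, the allelic difference correlated at 0.247 and 0.329 between NPC profiles of the 2 lines and at 0.254 between the repeats of Cas129, while ESC profiles correlated at 0.620 to 0.710 between the lines and 0.719 to 0.764 within them. The SD that 2 profiles of different lines share, the square root of their covariance, was 0.257 and 0.278 in NPCs and 0.502 to 0.575 in ESCs. Between NPC and ESC profiles it was 0.188 to 0.262 within a line and 0.197 to 0.265 across lines, and these ranges overlap.

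Calls rest on limma across all windows, with an adjusted p (Benjamini-Hochberg) under 0.05 and alleles 0.5 or more apart. In NPCs 1724 windows were called, 3.92% of those tested, 930 of them 129-early (2.12%) and 794 Cas-early (1.81%). The split turned with the scaling, since median-centred columns gave 726 129-early and 886 Cas-early windows and quantile-normalized columns 1100 and 1056. In ESCs of the same lines 9629 windows were called (21.9%), 4795 of them 129-early and 4834 Cas-early. All 3 NPC profiles had the direction of the call in 96.0% of the called NPC windows, and all 3 reached 0.5 in 60.7% of them, shares that the choice of these windows favours. The medians in the called direction were 0.85 in F121-9, 0.68 in Cas129 replicate 1 and 1.03 in replicate 2. The number of calls rests on the spread shared with other cells. It was 89 without the MEFs, 450 without embryos 1 and 3, 492 without the F121-9 NPCs, 476 without the Cas129 NPCs and 1262 without Cas129 NPC replicate 2. With F121-9 and Cas129 alone in the limma fit it was 0, with 8260 windows at an unadjusted p below 0.05, against 8361 with all 11 lines and embryos.

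The change between the cell types was tested as such. The allelic difference of NPCs minus that of ESCs was called in 4076 windows (9.28%), 2083 of them positive (4.74%) and 1993 negative (4.54%). Median-centred columns gave 1731 positive and 2058 negative calls, and quantile-normalized ones 2247 and 2273. Without the MEFs 753 windows were called and without embryos 1 and 3 1843. Windows were then sorted by the 3 tests. A window is kept when it was called in NPCs and ESCs with the same sign, lost when it was called in ESCs alone and the change towards 0 was called, gained when it was called in NPCs alone with a called change away from 0, and reversed when the called signs were opposite. Of the 9629 windows called in ESCs, 671 were kept (6.97%), 3190 lost (33.1%) and 81 reversed (0.841%). A further 5669 (58.9%) were called in ESCs but neither in NPCs nor for the change, and in those nothing can be said of loss. Without Cas129 NPC replicate 2, the numbers were 493 kept, 3361 lost and 58 reversed windows, and without MEF embryos 1 and 3 they were 200, 1600 and 20. Of the NPC calls 344 were gained (269 without that replicate and 95 without those embryos), and 628 were called in NPCs with neither a call in ESCs nor a called change. Simulated data held normal noise, with 200 of 43941 windows altered. There the test of NPC minus ESC found 0 of 200 changes of 1 and 146 of 200 changes of 2. The test of the NPC difference found 98 of 200 differences of 1. Few altered windows make the adjusted p harder to pass than in the data, so these shares are not the power of the reported tests. Of the 4076 called changes in the data, 2848 were of at least 1.

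**Figure D2:**
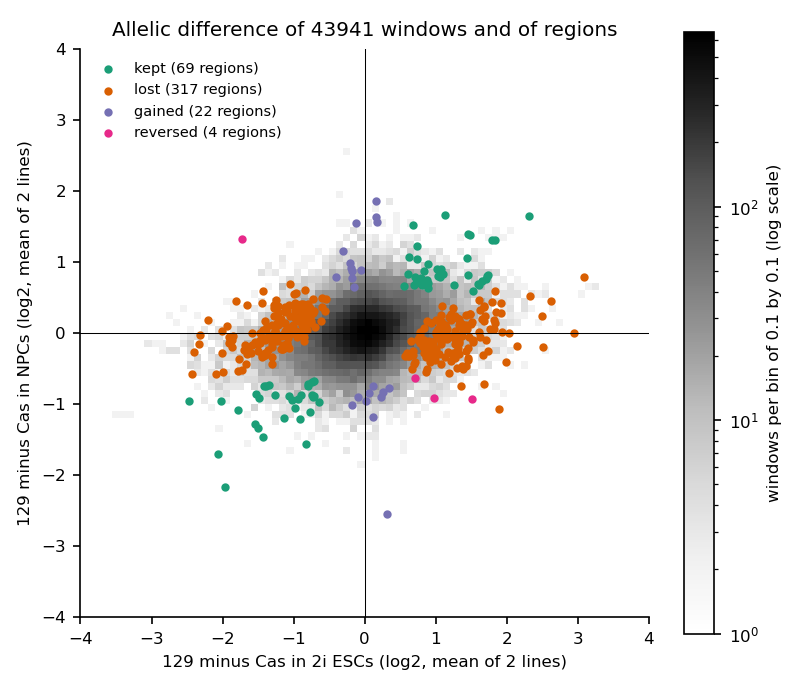
Allelic difference (129 minus Cas, log2) in 2i ESCs (horizontal) and in NPCs (vertical), each as the mean of 2 lines. Grey shading counts autosomal windows in bins of 0.1 (log scale), and coloured points are the 69 kept, 317 lost, 22 gained and 4 reversed regions, with the lost regions spread along the horizontal axis.

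Windows called in MEFs were more frequent among kept than among lost windows, with no test of this difference. The 3 cell types share each window's estimate of the spread, so a window of low spread is more readily called in all of them. In MEFs 43.2% of kept windows were called, against 16.8% of lost windows and 12.7% of all windows (129-early 5.41%, Cas-early 7.31%). The sign in MEFs was that of the NPCs in 74.7% of kept windows, 55.6% of lost windows and 56.8% of all windows. It was also that of the NPCs in 68.8% of windows called in NPCs with neither a call in ESCs nor a called change. MEFs share neither line nor culture with the NPCs, but their cross is that of Cas129. The median timing of kept windows was -0.76 in NPCs and -0.46 in ESCs, and of lost windows -1.33 and -1.30. Start sites of genes per window were fewer than average in both, with 0.376 per kept window and 0.250 per lost window, against 0.415 over all windows. The share of windows with a start site was below average in lost windows only (29.2% of kept, 20.2% of lost and 28.2% of all windows). Gained windows lay later, at a median of -2.17 in NPCs and -2.06 in ESCs, with 0.320 start sites per window.

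Neighbouring windows of 1 class and direction, up to 2 windows apart, were merged, and stretches of 200 kb or more are called regions. This gave 69 kept regions with a total of 22.1 Mb (38 of them 129-early and 31 Cas-early), 317 lost regions with 133 Mb (161 and 156), 22 gained regions with 6.15 Mb (12 and 10) and 4 reversed regions with 1.05 Mb (1 and 3). The median length was 250 kb for kept and 350 kb for lost regions. In the text below, coordinates are those of mm10, NPC values are given for F121-9 and for Cas129 replicates 1 and 2, and ESC values for F121-9 replicates 1 and 2 and Cas129 replicates 1 and 2. Adjusted p-values are those of limma at the window of largest difference in the region. Genes are up to 3 protein-coding ones nearest that window, within 200 kb, and need not lie in the region. Outside it lie Tc2n, Hira, Mrpl40, Vmn1r3, Ppt1, Cap1, Tsn, Nifk, Strap, Dera, Naa11, Antxr2, Fscb, Dipk1c, Fkbp3, Fancm, Vmn2r70, Vmn2r68, Pabpc2, Gm3325 and Npy2r.

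The kept region with the largest difference was that of Catsperb, a subunit of the sperm calcium channel, with Tc2n nearby (chromosome 12, 101400001 to 101600000). The Cas allele was earlier, at -1.61, -2.06 and -3.38 in NPC profiles, against -2.14, -2.38, -2.04 and -1.32 in ESC profiles. The ranges overlap. Here both alleles became later together, since the 129 allele had a mean timing of -2.39 in NPCs and -0.85 in ESCs and the Cas allele -0.23 in NPCs and 1.12 in ESCs. At its peak window the NPC difference was -2.64 ± 0.32 (SE, adjusted p = 0.00215) and the change -0.30 ± 0.46 (adjusted p = 0.752).

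On chromosome 16 (19000001 to 19400000), around the odorant receptor Olfr164, the histone chaperone Hira and the mitochondrial ribosomal protein Mrpl40, the 129 allele was earlier. The differences were 2.11, 1.78 and 0.58 in NPC profiles and 1.91, 2.11, 3.17 and 2.08 in ESC profiles. Cas129 replicate 2 was the lowest of the 7, and the mean of 4 MEF embryos was 1.77. A region of Pvrig (an immune receptor), Zfp157 and the meiotic cohesin subunit Stag3 (chromosome 5, 138200001 to 138700000) had 1.27, 1.37 and 1.66 in NPC profiles, against 1.80, 1.70, 1.25 and 1.08 in ESC profiles. The NPC values lie within the ESC range. Around the adhesion receptor Adgrf5 and the protease Mep1a (chromosome 17, 43250001 to 43700000) the difference was 1.40, 1.31 and 1.38 in NPC profiles and 0.95, 1.28, 2.16 and 1.57 in ESC profiles. This was the most even of the named kept regions in NPCs. The remaining named kept regions with an earlier 129 allele were those of Tmem68, with Vmn1r3 nearby (chromosome 4, NPC mean 1.32, ESC mean 1.79) and one near the lysosomal enzyme Ppt1 and Cap1 (chromosome 4, NPC mean 1.31, ESC mean 1.84).

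The immune receptors Slamf7, Ly9 and Cd48 (chromosome 1, 171500001 to 171800000) lay in a kept region with an earlier Cas allele, at -1.59, -0.80 and -1.15 in NPC profiles and -1.40, -1.74, -1.45 and -1.56 in ESC profiles. These genes mark blood cells. The other named kept regions with an earlier Cas allele were those at Gm4951 (chromosome 18, NPC mean -1.70, ESC mean -2.07), near the DNA-binding protein Tsn and the nucleolar protein Nifk (chromosome 1, NPC mean -1.47, ESC mean -1.43), and at the lipid scramblase Plscr4 and the collagen hydroxylase Plod2 (chromosome 9, NPC mean -1.33, ESC mean -1.49). In all 69 kept regions every NPC and every ESC profile had the direction of the call, which the choice of windows favours. The NPC call of each of the 10 named kept regions was lost in the fit of F121-9 and Cas129 alone. It was also lost without the MEFs at Olfr164, Pvrig, Ppt1 and Plscr4, without the F121-9 NPCs at Pvrig and Ppt1, and without the Cas129 NPCs at Pvrig and Plscr4.

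The 10 lost regions with the largest change, 5 per direction, had NPC means of -1.07 to 0.45, against ESC means of 1.68 to 2.95 where 129 was early and -2.40 to -1.80 where Cas was early. At Eps8, an actin regulator, with Strap and Dera nearby (chromosome 6, 137400001 to 137650000), the difference was 0.07, 0.10 and -0.23 in NPC profiles, against 2.45, 2.85, 3.79 and 2.69 in ESC profiles. The change at the peak window was -3.39 ± 0.29 (SE, adjusted p = 0.00023). Both alleles met at -0.75 in NPCs, where ESCs had 0.88 on the 129 allele and -2.07 on the Cas allele. The adjoining region of the transporter Slc15a5 (137850001 to 138050000) had -0.63, 0.34 and 0.13 in NPC profiles and 1.82, 1.86, 3.57 and 2.79 in ESC profiles. Here the alleles met late, at -2.61 (129) and -2.42 (Cas) in NPCs, against -0.09 (129) and -2.60 (Cas) in ESCs. The alleles of these adjoining regions thus met at different times.

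Among losses of an earlier Cas allele, the region of the testis kinase Gk2, the acetyltransferase Naa11 and the toxin receptor Antxr2 (chromosome 5, 97400001 to 97850000) had -0.16, 0.40 and 0.62 in NPC profiles, against -1.93, -2.32, -2.74 and -1.82 in ESC profiles. The groups do not overlap, and the change at the peak was 3.11 ± 0.27 (SE, adjusted p = 0.00026). At Chodl, a membrane lectin, and Btg3, a growth inhibitor (chromosome 16, 78300001 to 79050000), the difference was -0.18, 0.16 and -0.42 in NPC profiles and -2.24, -2.55, -2.51 and -2.05 in ESC profiles. The Cas allele was at -2.02 in NPCs, against 0.86 in ESCs, close to the late 129 allele (-2.18 in NPCs, -1.48 in ESCs). Near Ccnh, the cyclin of the CDK-activating kinase, and Rasa1, a Ras inhibitor (chromosome 13, 84650001 to 85600000), the difference was -0.20, 0.12 and 0.17 in NPC profiles and -1.76, -2.08, -2.60 and -2.83 in ESC profiles. The 129 allele was late in both, at -3.28 in NPCs and -3.21 in ESCs, and the Cas allele was at -3.25 in NPCs, against -0.89 in ESCs.

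The lost region near the sperm protein gene Fscb (chromosome 12) had NPC values of 0.52, -0.17 and 0.92 and ESC values of -2.40, -1.87, -1.54 and -1.40. It missed the call without Cas129 NPC replicate 2. A lost region with no gene named (chromosome 5, 10000001 to 10350000) had -1.25, -0.16 and -1.62 in NPC profiles and 2.80, 2.19, 1.92 and 0.66 in ESC profiles. Its NPC mean of -1.07 lay on the other side of 0, but its NPC difference was not called at the peak (adjusted p = 0.0623). The rest of the 10 named lost regions had no gene within reach either, on chromosome 6 from 60250001 (NPC mean -0.41, ESC mean 1.98), chromosome 17 from 54550001 (-0.71 in NPCs, 1.68 in ESCs) and chromosome 13 from 86700001 (-0.27 in NPCs, -2.40 in ESCs). Of the 10 named lost regions, 8 had the change called in every alternative in which they could be tested. The exceptions were Fscb and the region on chromosome 17, where the call was lost without the MEFs, without the F121-9 ESCs and with F121-9 and Cas129 alone.

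**Figure D3:**
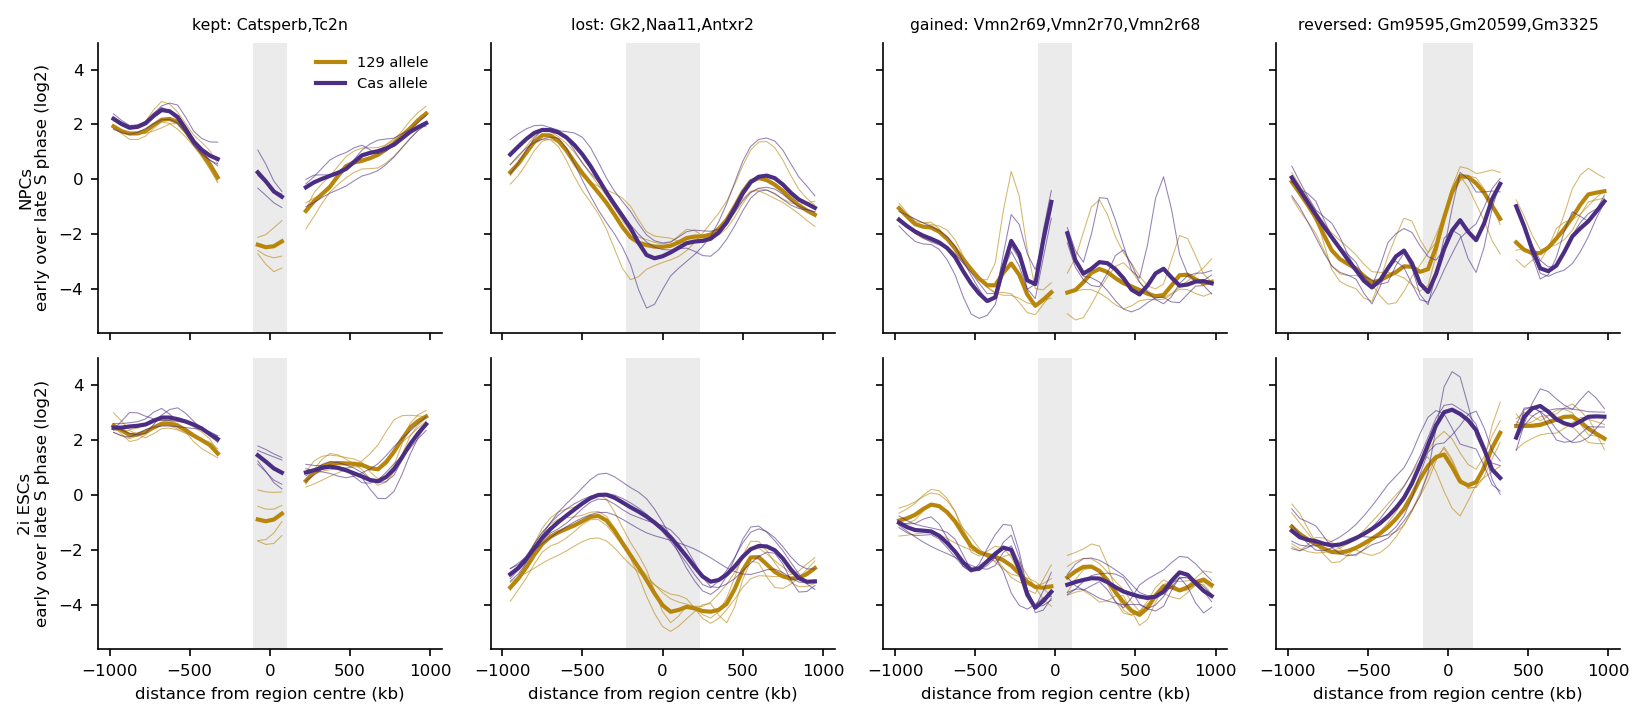
Timing of the 129 (gold) and the Cas allele (purple) by distance from the centre of 4 regions (kb), in NPCs (top row) and in 2i ESCs (bottom row), as log2 of early over late S phase. Thin lines are profiles, thick lines means of 2 lines, grey marks the called region, and gaps are stretches with no window. At Gk2, Naa11 and Antxr2 the alleles are apart in ESCs (mean -2.20) and close in NPCs (mean 0.18).

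Alleles met in NPCs through movement of either allele. In the windows with a difference of at least 1 in the other 3 ESC lines, the allele earlier there changed by a median of -0.79 in F121-9 and -0.69 in Cas129 between ESCs and NPCs. The later allele changed by 0.21 in F121-9 and 0.36 in Cas129. The medians ended at -1.25 for the earlier and -1.50 for the later allele in F121-9 NPCs, against -0.21 and -1.55 in its ESCs. In Cas129 they were -1.25 and -1.53 in NPCs and -0.43 and -1.73 in ESCs. The earlier allele was delayed by at least 0.5 in 58.2% of these windows in F121-9 and 54.8% in Cas129, and the later allele was advanced by that much in 41.5% and 46.1%. Over the 317 lost regions the later allele advanced by more than the earlier one was delayed in 148 (46.7%). By at least 0.5, the earlier allele was delayed in 188 lost regions and the later one advanced in 166, both happened in 40, both alleles became earlier in 58 and both later in 50. In the 69 kept regions both alleles were later by at least 0.5 in 27 and both earlier in 13. These shares rest on windows chosen for their change, and are a description.

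**Figure D4:**
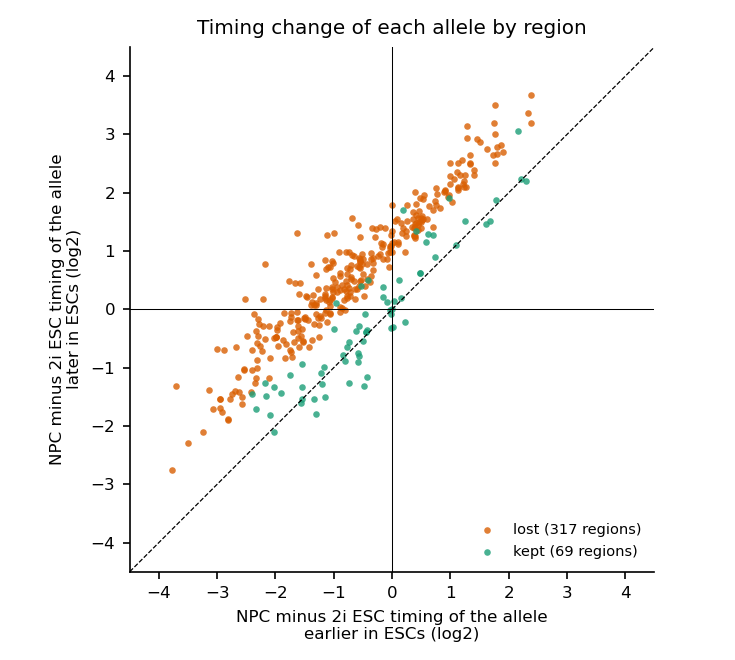
Change in timing from 2i ESCs to NPCs (log2, NPC minus ESC) of the allele that was earlier in ESCs (horizontal) and of the allele that was later (vertical), 1 point for each of the 317 lost and 69 kept regions. On the dashed line both alleles changed alike, and all lost regions lie above it because the alleles came closer there.

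Gained differences, set against ESCs of the same lines alone, were fewer, and 14 of the 22 gained regions had the same sign in the MEF mean. By window, NPCs and MEFs had the same sign in 55.8% of gained windows and in 56.8% of all windows. The largest lay at the vomeronasal receptors Vmn2r69, Vmn2r70 and Vmn2r68 (chromosome 7, 85350001 to 85550000), pheromone receptors of sensory neurons. The Cas allele was earlier, at -2.89, -2.35 and -2.04 in NPC profiles, against 0.73, 1.01, -0.69 and 0.22 in ESC profiles. The NPC difference at the peak was -3.30 ± 0.38 (SE, adjusted p = 0.00163). The Cas allele had a mean of -1.67 in NPCs and -3.55 in ESCs, and the 129 allele -4.21 in NPCs and -3.23 in ESCs, so both alleles were late in both cell types, the Cas allele less so in NPCs. These receptors have near-identical copies, and how reads were given to copies is not stated in the sources used here.

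The haem protein gene Cyb5a and Dipk1c (chromosome 18, 84800001 to 85200000) had an earlier 129 allele, at 1.61, 1.79 and 1.52 in NPC profiles, against 0.03, 0.01, 0.27 and 0.36 in ESC profiles. Both alleles were later in NPCs, the 129 allele at -1.01 in NPCs, against 1.15 in ESCs, and the Cas allele at -2.64 in NPCs, against 0.98 in ESCs. The MEF mean was 0.74. The region of the splicing factor Prpf39, the prolyl isomerase Fkbp3 and the DNA repair helicase Fancm (chromosome 12, 64800001 to 65050000) had 1.73, 1.16 and 1.61 in NPC profiles and -0.11, 0.36, 0.08 and 0.38 in ESC profiles. Here the mean of the other 3 ESC lines was 0.90 and that of the MEFs 1.33, so the small ESC difference was that of F121-9 and Cas129. Around Kcnj3, a subunit of a neuronal potassium channel (chromosome 2, 55350001 to 55600000), the difference was 2.11, 0.59 and 2.62 in NPC profiles and 0.81, 0.58, -0.06 and -0.71 in ESC profiles. The other 3 ESC lines had a mean of 0.54 there and the MEFs -0.15. Cas129 replicate 1 overlaps the ESC range, and the NPC call was lost without Cas129 NPC replicate 2, without either NPC line, without embryos 1 and 3, without the MEFs and with female lines alone. The cornified envelope genes Sprr1a, Sprr3 and Sprr4 (chromosome 3) had an NPC mean of 1.55, against -0.13 in ESCs, with 1.31 in MEFs, and the bitter taste receptors Tas2r130 and Tas2r107 (chromosome 6) 1.15, against -0.30 in ESCs.

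Smaller gained differences with an earlier Cas allele lay at Zfp873 (chromosome 10, -0.99, -1.33 and -1.43 in NPC profiles, 0.05 to 0.24 in ESC profiles, MEF mean -1.12), at the carbohydrate kinase Fggy (chromosome 4, NPC mean -1.01, ESC mean -0.18), at the proteasome subunit Psma2 and Mrpl32 (chromosome 13, -0.96 in NPCs, 0.02 in ESCs) and at Pabpc2 (chromosome 18, -0.90 in NPCs, -0.10 in ESCs). At Fggy both alleles became earlier, with the Cas allele at 0.99 in NPCs, against -2.41 in ESCs. The mean difference at Fggy was -0.56 in the other 3 ESC lines and -0.52 in MEFs, in the direction of the NPCs. In all 22 gained regions the 3 NPC profiles had 1 direction, which the choice of windows favours. Of the 10 named gained regions, each lost its NPC call with F121-9 and Cas129 alone and 7 lost it without the MEFs. Besides Kcnj3, the regions of Sprr1a, Zfp873 and Psma2 lost it without the Cas129 NPCs and that of Tas2r130 without the F121-9 NPCs.

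The sign turned in 4 regions. At Gm9595, Gm20599 and Gm3325 (chromosome 13, 61550001 to 61850000), the difference was 1.39, 1.98 and 0.56 in NPC profiles and -2.26, -1.18, -1.15 and -2.34 in ESC profiles. Both alleles were later in NPCs, the Cas allele at -2.56, against 2.70 in ESCs, and the 129 allele at -1.24, against 0.97 in ESCs. The region of Map9, a microtubule protein, Gucy1a1, a nitric oxide receptor subunit, and the neuropeptide receptor Npy2r (chromosome 3, 82100001 to 82400000) had -0.63, -0.70 and -1.74 in NPC profiles and 1.20, 2.37, 1.60 and 0.91 in ESC profiles. The hyaluronidase genes Hyal6 and Hyal4 with the actin regulator Wasl (chromosome 6) had an NPC mean of -0.91, against 0.98 in ESCs. All 7 profiles had the direction of their group in each of the 4 regions, which the choice of windows favours. The change was called in every alternative in which the window could be tested. A reversal also needs the NPC call, which was not followed by region in the alternatives. Its adjusted p at the peaks was 0.0199 to 0.0378 in limma. Fewer windows were reversed without the MEFs (5) and without embryos 1 and 3 (20), and 0 with F121-9 and Cas129 alone.

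**Figure D5:**
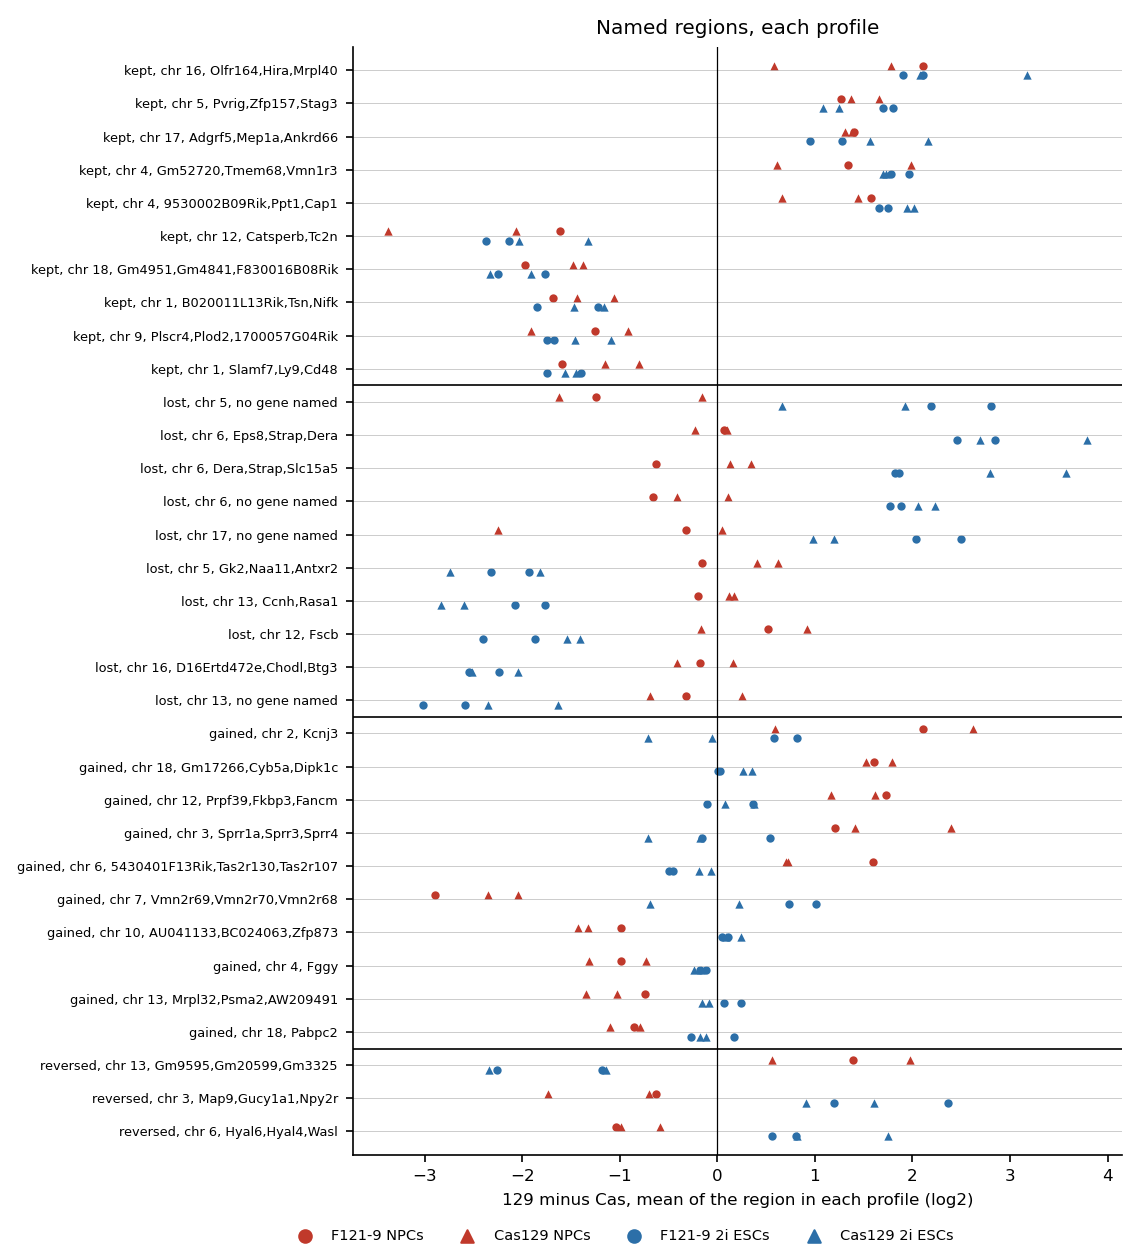
Allelic difference (129 minus Cas, log2) of the kept, lost, gained and reversed regions described in the text, in each NPC profile (red, upper of each pair) and each 2i ESC profile (blue, lower), with circles for F121-9 and triangles for Cas129. NPC points of the 10 lost regions lie between -2.25 and 0.92. The regions with no gene named on chromosomes 5 and 17 reach -1.62 and -2.25, across 0 from their ESC points. NPC points of the 3 reversed regions shown also lie across 0 from the ESC points.

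Calls in NPCs among genes of the cell types themselves lay near the share over all windows. None of the 20 pluripotency genes and none of the 19 neural precursor genes lay in a window called in NPCs, against 3.92% of all windows. Among 21 genes of neurons and adhesion, 1 was called, Map2, a microtubule protein of dendrites, with an earlier 129 allele (0.44, 0.78 and 1.44 in NPC profiles, -0.10 to 0.19 in ESC profiles, adjusted p = 0.0346 in limma). It missed the call in 9 of 20 alternatives, among them those without Cas129 NPC replicate 2, without the Cas129 NPCs and without the MEFs. Of 24 replication genes, 2 were called with an earlier 129 allele. The replication factor Mcm10 had 1.21, 0.52 and 0.69 in NPC profiles and 0.37 to 0.66 in ESC profiles (adjusted p = 0.0263 in limma), and missed the call in 7 alternatives, among them those without either NPC line. Orc5, a subunit of the origin recognition complex, had 0.83, 0.19 and 1.12 in NPC profiles, against 1.49, 1.37, 1.61 and 1.64 in ESC profiles. Its window was kept (adjusted p = 0.0171 in limma), and the smaller size in NPCs was called too (-0.79 ± 0.20, SE, adjusted p = 0.0328). Both calls of Orc5 were lost without the MEFs or either NPC line, and that in NPCs also without Cas129 NPC replicate 2.

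The change was called in few members of the lists. In NPCs minus ESCs, 1 of 20 pluripotency genes was called, 2 of 19 neural precursor genes, 0 of 21 genes of neurons and adhesion, 1 of 39 imprinted and 1 of 24 replication genes, against 9.28% of all windows. Tcl1, a cofactor of the kinase Akt that is active in ESCs, had a difference of 0.22, 0.51 and 0.26 in NPC profiles, against 2.14, 2.19, 1.82 and 1.74 in ESC profiles. The change was -1.67 ± 0.24 (SE, adjusted p = 0.00238), and NPC and ESC profiles do not overlap. Slc1a3, the glial glutamate transporter GLAST of radial glia, had 0.50, 0.30 and 0.18 in NPC profiles, against -1.90, -2.12, -1.98 and -1.20 in ESC profiles (change 2.17 ± 0.28, SE, adjusted p = 0.0016). The timing of its window was 1.43 in NPCs and 1.25 in ESCs, so the alleles met with little change of their mean. Gli3, a transcription factor of Hedgehog signalling, had 0.11, 0.31 and 0.11 in NPC profiles and 1.25, 0.93, 1.18 and 0.88 in ESC profiles (change -0.90 ± 0.22, SE, adjusted p = 0.0264), and its window advanced to 0.54 in NPCs, against -2.59 in ESCs. The changes at Tcl1 and Slc1a3 were called in all alternative fits, and that at Gli3 was lost without either NPC line, without either ESC line, without the MEFs, without embryos 1 and 3, with feeder profiles added and with a minimum size of 1. With genes placed by midpoint, 1 of the 19 neural precursor genes was called for the change, with a positive sign, and Gli3 was not.

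Among genes of fibroblasts and endoderm the change was called in 18.75% and 20%, against 9.28% of all windows. In ESCs 31.25% and 46.7% were called, against 21.9% of all windows, and in NPCs 3.92% of all windows were called. The lists are short, no test was made of these shares, and the genes named here were chosen once their values were known. Of 16 fibroblast genes 0 were called in NPCs and 3 for the change, Vim (NPC mean 0.13, ESC mean 1.42), the protease gene Fap (-0.17 in NPCs, -1.96 in ESCs) and the matrix proteoglycan gene Dcn (0.25 in NPCs, -1.15 in ESCs). Vim, an intermediate filament, is also used by neural precursors. Of 15 endoderm genes 0 were called in NPCs and 3 for the change, the vitamin B12 receptor gene Cubn (0.16 in NPCs, 1.44 in ESCs), the endocytic adaptor gene Dab2 (-0.57 in NPCs, 0.46 in ESCs) and the transcription factor gene Gata6 (-0.01 in NPCs, 0.89 in ESCs). None of 16 housekeeping genes was called in NPCs, in ESCs or for the change. The median size of the difference was 0.207 over all windows in NPCs and 0.284 in ESCs.

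The promoters of 4 genes of these classes are shown because their start site sets the window in which the alleles were compared, and their base composition differs. They are RefSeq sequences on GRCm38.p6, 250 bases before to 50 bases after the start, written 5′ to 3′ on the strand of the gene, with CG pairs in capitals.
Orc5 (kept, chr5:22550289-22550588, minus strand): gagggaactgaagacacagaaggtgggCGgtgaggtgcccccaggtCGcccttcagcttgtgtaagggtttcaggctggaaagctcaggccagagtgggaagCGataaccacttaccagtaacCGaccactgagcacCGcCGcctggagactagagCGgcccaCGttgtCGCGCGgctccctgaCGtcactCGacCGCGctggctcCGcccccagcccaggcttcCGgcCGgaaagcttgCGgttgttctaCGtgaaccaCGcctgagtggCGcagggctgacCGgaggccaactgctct
Tcl1 (lost, chr12:105222688-105222987, minus strand): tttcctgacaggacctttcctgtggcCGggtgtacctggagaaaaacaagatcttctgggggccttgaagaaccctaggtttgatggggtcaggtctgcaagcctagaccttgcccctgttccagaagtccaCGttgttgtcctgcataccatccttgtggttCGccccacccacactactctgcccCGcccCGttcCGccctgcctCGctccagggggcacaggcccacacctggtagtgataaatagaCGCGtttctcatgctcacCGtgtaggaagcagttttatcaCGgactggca
Slc1a3 (lost, chr15:8710758-8711057, minus strand): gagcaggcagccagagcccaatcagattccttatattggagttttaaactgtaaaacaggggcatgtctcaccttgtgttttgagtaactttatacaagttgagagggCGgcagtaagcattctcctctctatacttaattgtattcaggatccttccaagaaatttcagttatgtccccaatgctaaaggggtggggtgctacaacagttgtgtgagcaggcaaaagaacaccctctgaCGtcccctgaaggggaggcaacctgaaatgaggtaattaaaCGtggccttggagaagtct
Kcnj3 (gained, chr2:55435720-55436019, plus strand): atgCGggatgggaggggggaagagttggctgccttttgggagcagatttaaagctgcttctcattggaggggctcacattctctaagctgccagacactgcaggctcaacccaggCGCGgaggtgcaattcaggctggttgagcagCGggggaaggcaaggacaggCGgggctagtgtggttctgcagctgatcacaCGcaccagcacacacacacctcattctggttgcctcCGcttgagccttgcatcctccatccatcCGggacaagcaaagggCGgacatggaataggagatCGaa
Orc5 has 23 CG pairs, and 21.5% of the 32851 promoters of the table have as many or more. Tcl1 has 11 (41.4% have as many or more), Kcnj3 10 (43.5%) and Slc1a3 3 (76.7%). The lost windows of Tcl1 and Slc1a3 thus differ in this respect, and nothing about binding or methylation follows from these letters.

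Windows of gene families that hold clusters had a larger share called in NPCs than the genome, except the protocadherins. Families were taken by gene symbol, whether or not a gene lies in a cluster. Genes of a cluster share windows and called stretches, so these are counts of windows with no test. Of 433 windows that hold an odorant receptor gene, 26 were called in NPCs (6.00%, against 3.92% of all windows), 14 of them 129-early and 12 Cas-early. Odorant receptor windows were late, at a median of -3.08 in NPCs and -1.45 in ESCs, and 6 were kept, 31 lost and 5 gained. Over all autosomal windows 1.53% were kept, 7.26% lost and 0.783% gained. Vomeronasal receptors of type 1 had 8 of 97 windows called, all with an earlier 129 allele, and those of type 2 had 7 of 84. Zfp zinc finger genes, which encode DNA-binding proteins of which some silence transposons, had 23 of 275 windows called (8.36%), 16 of them 129-early and 7 Cas-early. Zfp windows were early, at a median of 1.61 in NPCs and 2.39 in ESCs. Of the Zfp windows 12 were kept and 8 lost. Protocadherin genes, clustered or not, had 0 of 21 windows called in NPCs.

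Strain, rather than parent of origin, was the more frequent direction in NPCs. A difference of at least 0.5 in both lines had the same strain earlier in 2996 windows, 1600 with 129 and 1396 with Cas. The alleles were opposite in 668 windows, with the allele of the first-named parent earlier in 258 and that of the second-named in 410. In ESCs of these lines, 8545 windows had the same strain earlier and 198 were opposite. Noise can put a window in either class, and the share of opposite windows was not tested. Windows with a difference of at least 1 in F121-9 NPCs (1570) had a median of 0.34 in that direction in Cas129 NPC replicate 1 and 0.48 in replicate 2, with the sign shared by 66.8% and 65.7%. The same choice in F121-9 ESCs (4003 windows) gave 1.27 and 1.03 in Cas129 ESCs, with 96.3% and 94.1%.

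Imprinted genes are expressed from the allele of 1 parent. Of 39 measured members, 0 had opposite differences of at least 0.5 in the reciprocal lines as NPCs, against 1.52% of all windows, which would be under 1 of 39 genes. The amino acid transporter gene Slc38a4 was the only one called in NPCs (3.92% of all windows), with the Cas allele earlier in both crosses (-0.96, -0.77 and -1.19 in NPC profiles, -1.23, -1.49, -1.11 and -1.17 in ESC profiles, adjusted p = 0.00335 in limma). Its window was kept, and its call was lost without the MEFs and with F121-9 and Cas129 alone. Slc22a3, an organic cation transporter, was lost (0.01, 0.29 and 0.23 in NPC profiles, -1.31, -1.27, -1.08 and -1.48 in ESC profiles, change 1.42 ± 0.28, SE, adjusted p = 0.0108 in limma). The change was not called without the MEFs, without the Cas129 NPCs or without either ESC line. Meg3 and Dlk1 of chromosome 12, chosen for mention once their values were known, had -0.20, -0.50 and -1.07 (Meg3) and -0.38, -0.55 and -1.16 (Dlk1) in NPC profiles. In ESC profiles Meg3 had -1.34, -1.20, -2.79 and -2.91 and Dlk1 -1.42, -1.25, -2.77 and -2.51, and the lines differ there. Neither change was called (adjusted p = 0.224 and 0.327 in limma).

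Allelic differences of NPCs lay mostly in windows of middle timing, where part of the course is set by the ranking itself. With windows ranked by NPC timing into 10 equal bins, 3.48% were called in the latest bin, 7.28% in the fifth and 0.0910% in the earliest. The SD shared by the 2 NPC lines was 0.142 in the latest bin, 0.375 in the fifth and 0.0506 in the earliest, and the ESC lines had 0.510, 0.668 and 0.198 in the same windows. Noise was largest in late windows, where 36.3% (F121-9), 35.4% and 62.2% (Cas129) had a difference of at least 0.5 in NPC profiles. By chromosome, the share of windows called in NPCs was 1.97% on chromosome 19 to 5.44% on chromosome 17. The share of ESC calls that were lost was 26.4% on chromosome 14 to 38.8% on chromosome 18. The direction of the NPC calls was uneven on some chromosomes, with 53 129-early and 13 Cas-early windows on chromosome 2, and 26 and 66 on chromosome 18, where neighbouring windows count repeatedly.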

How the data were processed

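The deposited file is 1 table of allele-specific replication timing in windows of 50 kb on mm10, with a column per allele and profile. Per the labels' protocols, cells were pulse labelled with BrdU and sorted into early and late S phase before sequencing. The submitters' processing notes name Bowtie2, SAMtools and bedtools without versions. The deposited log2 values (the base is an assumption, as the sources used here do not state it) combine an early and a late library, and any normalization or smoothing by the authors is not stated in the sources used here. The file gives no read counts, so the depth and its precision are unknown. Of the 54 value columns, 6 (V6.5 and XEN cells) hold no 129 and Cas pair of these crosses and were not used.

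Starts were converted to count from 1. Profiles of a line or embryo share its cells and were averaged, which left 11 lines and embryos: the 2 NPC lines, the same 2 lines as ESCs, 3 other ESC lines and 4 MEF embryos. Their allelic differences were fitted with limma 3.58.1 (R 4.3.3; lmFit with a mean per group, then eBayes) over 43941 windows, so the spread is shared by all cell types. The NPC and ESC samples of a line were taken as independent. With line as a random block the estimated correlation was -0.0285, and 1725 windows were called in NPCs. p-values measure the spread between these lines and embryos. Replicate numbers did not pair profiles: over 36 pairs of same-numbered profiles the correlation of deviations was -0.071 to 0.022. The scripts were tested on simulated data. Other steps used Python 3.11.15, pandas 2.3.3, numpy 2.4.6, scipy 1.17.1 and matplotlib 3.10.9.

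A gene was given the window of its start site where the RefSeq promoter table has it, and otherwise that of its midpoint, with the midpoint for all genes as an alternative. The named regions are, per class and direction, up to 5 with the largest difference (kept: the smaller of the NPC and ESC means; lost and reversed: the change; gained: the NPC mean). Named genes are those called in NPCs or for the change in the lists of pluripotency, neural precursors, neurons and adhesion, imprinting and replication. The gene lists, classes and regions were chosen with earlier results of these data known. Alternatives changed the scaling, the minimum size, the block, the lines in the fit and the profiles kept. The genes of 1 reversed region are not reported here.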

Additional observations from a re-analysis of the deposited data

Results flagged for a closer look

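In 3 of the lost regions named above, the NPC profile of F121-9 and the mean of the 2 Cas129 NPC profiles lay on opposite sides of 0. Around Dera, Strap and Slc15a5 on chromosome 6 the difference was -0.631 in F121-9 and 0.234 in Cas129. Around Gk2, Naa11 and Antxr2 on chromosome 5 it was -0.156 in F121-9 and 0.511 in Cas129. Near Ccnh and Rasa1 on chromosome 13 it was -0.203 in F121-9 and 0.143 in Cas129. The difference between the lines was not tested, and F121-9 has 1 NPC profile.

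The X chromosome, which enters no comparison above, had alleles 0.5 or more apart in 45.8% of its 2324 windows in F121-9 NPCs and in 67.3% and 76.0% in Cas129 NPC replicates 1 and 2. The ESC profiles of the same lines had 37.3% to 41.6%. In Cas129 NPCs the SD of the 129 allele along the X was 1.45 (replicate 1) and 1.40 (replicate 2), and that of the Cas allele 1.98 and 1.77. In F121-9 NPCs it was 2.11 for the 129 and 1.99 for the Cas allele.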

How the results depend on the processing

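No named region or gene changed sign in any alternative, but the number of calls rests on the lines that set the spread, and the split of calls by direction turned with centring, as given above. Counts are given in the order NPC calls, ESC calls, calls of the change, kept, lost, gained and reversed, where an entry within 1.5 times of the value reported above is left out. The fit of profiles with the replicate block gave 3027 NPC calls, 6899 calls of the change, 1151 kept, 4824 lost, 783 gained and 168 reversed windows, and without the block 3009, 6993, 1172, 4923, 773 and 165. Profiles with line as a random block gave 8179 calls of the change, 5604 lost and 760 gained. Without the MEFs there were 89 NPC and 6029 ESC calls, 753 of the change, 54 kept, 671 lost, 16 gained and 5 reversed. With F121-9 and Cas129 alone there were 0 NPC calls (8260 at an unadjusted p below 0.05 in limma), 1422 of the change, 1262 lost and 0 kept, gained or reversed. Lines and embryos labelled female gave 550 NPC calls, 2278 of the change, 253 kept, 1972 lost, 108 gained and 27 reversed. Without MEF embryos 1 and 3 there were 450 NPC calls, 1843 of the change, 200 kept, 1600 lost, 95 gained and 20 reversed. A minimum size of 1 gave 547 NPC and 3618 ESC calls, 138 kept, 1826 lost, 150 gained and 20 reversed.

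Leaving out a line or replicate in turn gave 476 to 2958 NPC calls, 3987 to 9659 ESC calls, 1274 to 4172 of the change, 138 to 968 kept, 1040 to 3361 lost, 91 to 593 gained and 22 to 127 reversed windows. The highest NPC count was that without Cas129 NPC replicate 1 and the lowest that without the Cas129 NPCs.

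In windows of the other 3 ESC lines, the median in their direction over all profiles was 0.210 in NPCs and 1.19 in ESCs with a minimum size of 1, and 0.146 in NPCs and 0.699 in ESCs after centring each column. In windows of the MEFs it was 0.187 in NPCs and 0.205 in ESCs with a minimum size of 1, and 0.142 in NPCs and 0.176 in ESCs after centring. The later allele advanced by more than the earlier was delayed in 52.1% of lost windows after centring and in 49.8% without it. Of the 34 named regions, 21 missed their call with F121-9 and Cas129 alone and 12 without the MEFs, and all passed with quantile normalization, centring, the replicate block and the other fits of profiles. In 5 of them the peak window lacks a neighbour in the table, and these were not tested in the alternative of windows with both neighbours. With genes placed by midpoint, calls of the change were 1 of 19 neural precursor, 1 of 20 neuron and adhesion and 2 of 15 endoderm genes. The cause of these differences was not tested, except that leaving out lines leaves fewer samples. The depth is unknown, and what it limits cannot be given.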
